A study of Mus musculus with 6 samples.

Results

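The 5 subunit genes of the transcription factor NF-κB (*Nfkb1*, *Nfkb2*, *Rel*, *Rela* and *Relb*) and 5 genes grouped here as its feedback inhibitors (*Nfkbia*, *Nfkbib*, *Nfkbie*, *Nfkbiz* and *Tnfaip3*) were followed in the mouse heart after myocardial infarction (MI). *Nfkbiz* is counted with the inhibitors as an IκB family gene, although its protein acts in the nucleus with p50 on secondary response genes. These 10 members were taken by gene symbol and matched to their NCBI gene numbers, and all 10 were found among the 17441 genes listed in at least 1 of 6 RNA-seq libraries. NF-κB works as a dimer of subunits that share a Rel homology domain. RelA (p65), c-Rel and RelB carry a transactivation domain, whereas p50 and p52 are processed from the precursors encoded by *Nfkb1* and *Nfkb2*. In unstimulated cells IκB proteins hold the dimers in the cytoplasm, and the IκB kinase (IKK) marks them for degradation after signals from Toll-like, IL-1, TNF or C-type lectin receptors. *Nfkbia*, *Nfkbie* and *Tnfaip3* are themselves NF-κB target genes, which closes a negative feedback loop, and in the infarcted heart both resident cells and infiltrating leukocytes use the pathway.

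Male mice aged 12 weeks made up 3 groups, each with 2 libraries: wild-type mice after a sham operation (WT Sham), wild-type mice with the left coronary artery ligated (WT MI), and *Card9* knockout mice given the same ligation (*Card9* KO MI), all on a C57BL/6 background per the study's methods. Tissue below the ligature was taken 3 days after surgery. CARD9 is an adapter that joins BCL10 and MALT1 into a complex leading from C-type lectin receptors to IKK, so the comparison of genotypes asks how the infarcted heart differs when an input to NF-κB is removed. No sham-operated knockout libraries were analysed here, so genotype and infarct cannot be told apart where knockout infarcts are set against WT Sham. Between the infarct groups, a genotype difference present before surgery cannot be told apart from a different response to infarction. The labels do not say whether the libraries of a group came from separate animals, and p-values therefore measure only the spread between these libraries.

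*Card9* itself was listed at 0.99 and 1.03 FPKM in sham hearts, 3.39 and 5.08 in WT MI, and 9.85 and 6.94 in knockout libraries. FPKM scales a gene's fragments by its length and by the mapped fragments of the library. The targeted gene was thus not lower where the label reads knockout (log2 fold change 0.85 against WT MI, limma adjusted p = 0.11). Exons were not separated in this value. These libraries are therefore called KO-labelled below, and every direction between them and WT MI rests on that label. Estimated depth was 3.00e6 to 3.15e6 fragments in sham hearts and 3.91e6 to 4.30e6 in the infarct libraries, at which 3 fragments on a 2 kb transcript are worth 0.349 to 0.499 FPKM (counting error only).

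Markers of other cells moved with the groups. The summed FPKM of 14 macrophage markers was 432 and 370 in sham hearts, 1495 and 1893 in WT MI, and 3006 and 2179 in KO-labelled MI. Of 10 neutrophil markers, 8 were listed (*Ly6g* and *Camp* were at 0 throughout), and their sum was 7.87 and 5.40, 227.6 and 98.1, and 61.7 and 48.5 in the same order. The 8 cardiomyocyte markers summed to 46276 and 48383 in sham hearts, 28890 and 29811 in WT MI and 24041 and 28066 in KO-labelled MI, so the tissue label held in all 6 libraries. The sum of 7 fibroblast markers was 459 to 480 in sham hearts, and infarcts had 1274 and 1713 (WT) or 2651 and 2552 (KO-labelled). That of 6 endothelial markers was 304 and 299 in sham hearts, 311.4 and 311.2 in WT MI, and 362 and 363 in KO-labelled MI. T cell (6 genes) and B cell (4 genes) markers summed to at most 6.24 FPKM in any library. In bulk tissue fewer cells of a type and less RNA per cell cannot be told apart, and the part of these shifts in the NF-κB results was not tested.

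Promoter sequences are shown because *Nfkbia*, *Nfkbie* and *Tnfaip3* are known NF-κB target genes. Binding was not measured here. In the RefSeq promoter table (GRCm38.p6), 7 of the 10 members had entries (all except *Nfkb1*, *Relb* and *Nfkbiz*). The 250 bases before the annotated start of the 4 members printed first contain letters of the κB consensus (GGG, a purine, any 2 bases, 2 pyrimidines, CC, on either strand), which are in capitals. *Nfkbib*, which encodes IκBβ, had no match and is shown for contrast.
Nfkbia: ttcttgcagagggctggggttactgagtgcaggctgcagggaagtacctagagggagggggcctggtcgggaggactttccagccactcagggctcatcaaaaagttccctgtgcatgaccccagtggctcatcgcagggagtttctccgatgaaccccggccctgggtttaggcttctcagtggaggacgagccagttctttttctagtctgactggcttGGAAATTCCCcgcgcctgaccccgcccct
Nfkb2: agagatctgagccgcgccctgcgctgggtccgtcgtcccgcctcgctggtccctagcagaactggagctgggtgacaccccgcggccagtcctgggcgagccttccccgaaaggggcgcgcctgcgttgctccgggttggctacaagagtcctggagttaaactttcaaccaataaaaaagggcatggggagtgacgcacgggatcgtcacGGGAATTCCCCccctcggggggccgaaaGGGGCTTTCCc
Nfkbie: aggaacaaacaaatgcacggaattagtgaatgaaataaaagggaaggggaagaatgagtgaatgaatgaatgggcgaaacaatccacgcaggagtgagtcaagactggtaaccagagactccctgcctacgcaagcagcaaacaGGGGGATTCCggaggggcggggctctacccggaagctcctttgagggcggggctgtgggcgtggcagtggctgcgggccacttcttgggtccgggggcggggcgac
Tnfaip3: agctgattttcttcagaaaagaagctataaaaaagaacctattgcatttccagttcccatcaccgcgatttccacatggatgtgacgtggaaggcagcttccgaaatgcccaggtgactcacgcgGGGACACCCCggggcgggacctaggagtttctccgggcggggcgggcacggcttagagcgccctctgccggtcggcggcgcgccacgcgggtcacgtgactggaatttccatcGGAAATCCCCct
Nfkbib: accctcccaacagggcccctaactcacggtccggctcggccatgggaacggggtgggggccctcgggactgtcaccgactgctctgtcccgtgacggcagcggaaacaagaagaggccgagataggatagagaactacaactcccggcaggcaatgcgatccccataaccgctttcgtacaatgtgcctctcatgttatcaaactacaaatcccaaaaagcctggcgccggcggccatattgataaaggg
These are chr12:55492648-55492897 (minus strand) for *Nfkbia*, chr19:46304487-46304736 (plus) for the first of 3 *Nfkb2* start sites, chr17:45555450-45555699 (plus) for *Nfkbie*, chr10:19015411-19015660 (minus) for the first of 2 *Tnfaip3* start sites and chr7:28766645-28766894 (minus) for *Nfkbib*. In *Nfkbia* the match GGAAATTCCC lies 29 to 20 bases before the start. *Nfkb2* carries 2 runs, of which GGGAATTCCCC lies 39 to 29 bases before the start. *Tnfaip3* holds GGAAATCCCC 12 to 3 bases before it, and *Nfkbie* holds GGGGGATTCC 106 to 97 bases before it. The consensus was present in 5 of the 7 members (also in *Rel*, not in *Rela*) and at 7 of their 10 start sites, against 7.25% of the 32851 promoter windows in the table. All 3 *Nfkb2* start sites are among the 7, and 2 of their windows overlap. Some members are known target genes, and the share over all windows was not matched for base composition, so these shares are a description only. A looser motif, GGG and CC with any 5 bases between them, overlaps the consensus and was searched before it. It was found in 6 of 7 members, at 9 of their 10 start sites and in 45.8% of all windows. A match describes letters only and not a bound site.

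In sham-operated hearts the abundant members were *Rela* at 22.31 and 19.76 FPKM and *Nfkbia* at 16.77 and 24.36, whose ranges overlap. *Nfkbib* and *Nfkb1*, with overlapping ranges of 13.51 to 15.76, and *Nfkb2* at 11.25 and 9.64 came next. *Relb*, *Rel*, *Nfkbiz*, *Tnfaip3* and *Nfkbie* followed in that order of mean, from 5.42 down to 0.99 FPKM, with *Relb* spread over 7.12 and 3.71 and with *Tnfaip3* and *Nfkbie* overlapping. In WT MI the order changed at the top, with *Nfkbia* at 51.51 and 48.16 above *Rela* at 34.17 and 32.43, followed by *Nfkb2*, *Nfkb1* and *Nfkbib*, where *Nfkb1* overlapped both neighbours and *Nfkb2* did not overlap *Nfkbib*. In KO-labelled MI the ranges of *Nfkbia* and *Rela* overlapped again, at 36.23 and 32.39 against 33.47 and 32.82. *Tnfaip3* was the lowest member in every infarct library.

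**Figure D1:**
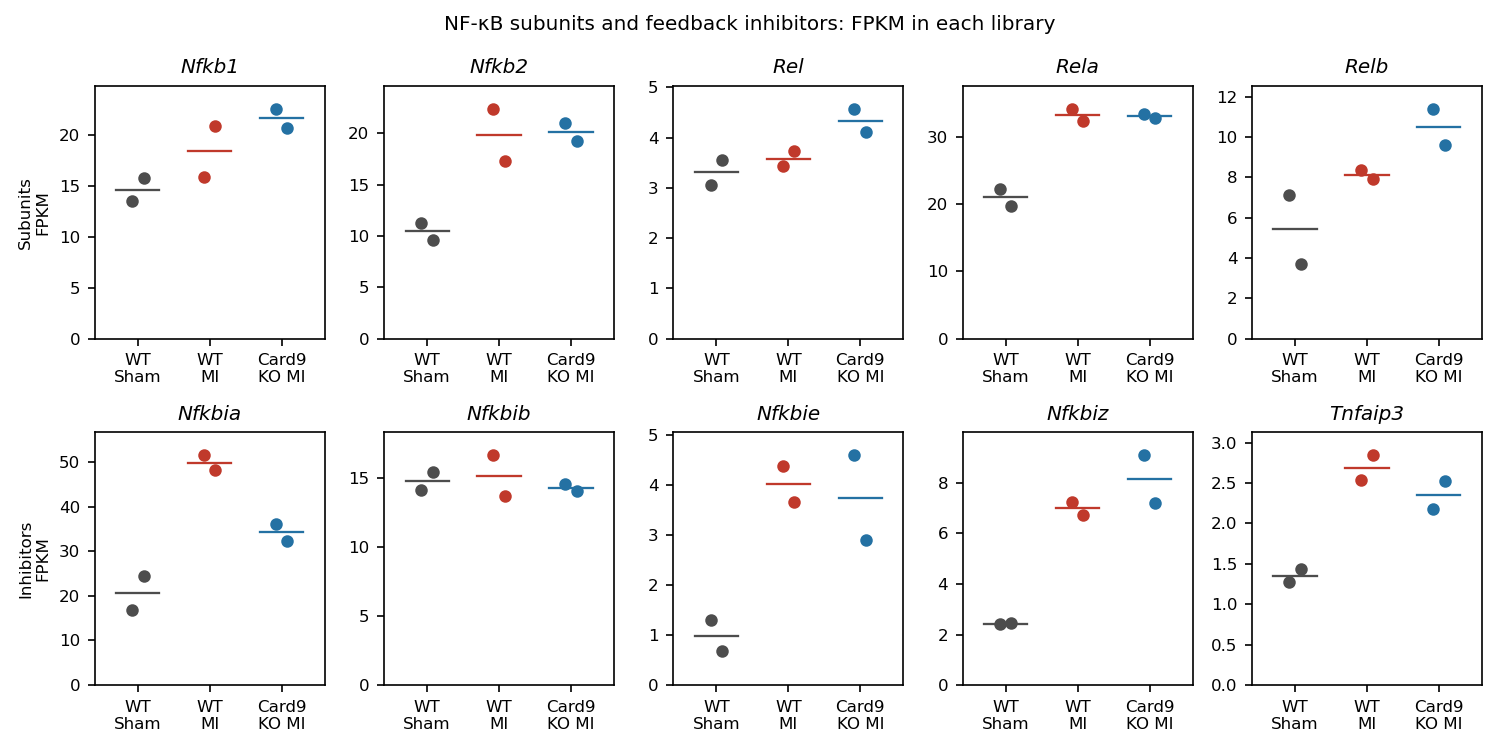
FPKM of the 10 members in each of the 6 libraries, 1 panel per gene, subunits in the upper row and inhibitors in the lower row. Points are single libraries, horizontal lines are group means, and each y axis starts at 0 FPKM. *Nfkbia* lies at 48.16 and 51.51 FPKM in WT MI, above its WT Sham values of 16.77 and 24.36 and its KO-labelled values of 32.39 and 36.23.

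In WT MI 6 of the 10 members were higher than in WT Sham and 0 were lower (limma on log2(FPKM + 1) over 13120 genes, adjusted p below 0.05), where 27.7% of all tested genes were called higher and 9.39% lower. The 6 were the subunits *Nfkb2* and *Rela* and the inhibitors *Nfkbia*, *Nfkbie*, *Nfkbiz* and *Tnfaip3*. The libraries of both groups did not overlap for 8 members, all higher in WT MI, against 48.3% of tested genes. The median log2 fold change was 0.65 over the members and 0.19 over all tested genes. Because 1 was added before taking logarithms, the change of low genes is understated.

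Of the subunits, *Nfkb2* (NCBI gene 18034; mm9 chr19:46379227-46386580, plus strand), the precursor of p52 in the non-canonical pathway, was at 11.25 and 9.64 FPKM in sham hearts and at 22.39 and 17.35 in WT MI. Both infarct libraries were above both sham libraries, by 1.90-fold in the means (log2 fold change 0.86, SE 0.15, limma adjusted p = 0.004). *Rela* (NCBI gene 19697; mm9 chr19:5637483-5648130, plus strand), encoding the transactivating subunit p65, went from 22.31 and 19.76 to 34.17 and 32.43 FPKM. Its 2 sham values lay below both infarct values, and the means differed 1.58-fold (log2 fold change 0.64, SE 0.11, limma adjusted p = 0.003). The other subunits did not pass the test. *Relb*, the partner of p52, was at 7.12 and 3.71 FPKM in sham hearts and 8.35 and 7.90 in WT MI (log2 fold change 0.56, 95% confidence interval -0.01 to 1.14, limma adjusted p = 0.11). Without the first WT Sham library, where *Relb* was at 7.12, its log2 fold change was 0.95 with a limma adjusted p of 0.011, and without the second, where it was at 3.71, it was 0.17 and not called. *Nfkb1*, the precursor of p50, had a log2 fold change of 0.30 (95% confidence interval -0.06 to 0.67, limma adjusted p = 0.16), which became 0.069, 0.078 and 0.16 under upper-quartile scaling, quantile normalization and scaling without the 100 most abundant genes, and 0.12 to 0.49 with single libraries left out. *Rel*, encoding c-Rel, stayed between 3.05 and 3.73 FPKM in the 4 wild-type libraries, and its difference turned from 0.09 to -0.10, -0.25 and -0.03 on the log2 scale under the same 3 scalings.

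The median log2 fold change was 1.22 over the 5 inhibitors, which is the value of *Nfkbiz*, and 0.56 over the 5 subunits. *Nfkbia* (NCBI gene 18035; mm9 chr12:56590398-56593634, minus strand) encodes IκBα, the inhibitor that is degraded and resynthesised in each round of NF-κB activation. It was at 16.77 and 24.36 FPKM in sham hearts and at 51.51 and 48.16 in WT MI, without overlap. The means differed 2.42-fold (log2 fold change 1.26, SE 0.17, limma adjusted p = 0.0011). *Nfkbiz* (NCBI gene 80859; mm9 chr16:55811488-55839012, minus strand), which encodes the nuclear protein IκBζ that acts with p50 on secondary response genes, went from 2.42 and 2.44 to 7.24 and 6.75 FPKM, a 2.88-fold difference of the means (log2 fold change 1.22, limma adjusted p = 0.0011). Its sham libraries were almost identical and both infarct libraries lay well above them. *Nfkbie* (NCBI gene 18037; mm9 chr17:45692665-45700118, plus strand), which encodes IκBε, was at 1.30 and 0.68 FPKM in sham hearts, worth an estimated 9.91 and 4.95 fragments, and at 4.38 and 3.66 in WT MI. The log2 fold change of 1.35 (SE 0.25, limma adjusted p = 0.0051) was based on these small numbers and ranged from 0.59 to 1.97 with an added FPKM of 5 or 0.1 in place of 1. That of *Nfkbiz* ranged from 0.69 to 1.49 in the same way.

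*Tnfaip3* (NCBI gene 21929; mm9 chr10:18720716-18735463, minus strand) encodes A20, a ubiquitin-editing enzyme that shuts down signalling to IKK. It was at 1.27 and 1.43 FPKM in sham hearts and 2.54 and 2.84 in WT MI, where the log2 fold change was 0.65 (SE 0.19, limma adjusted p = 0.031). Its groups did not overlap, but its call was lost under each of the 3 other scalings (log2 fold change 0.29 to 0.56) and when any 1 of the 4 wild-type libraries was left out (0.59 to 0.71). *Nfkbib*, encoding IκBβ, was the exception among the inhibitors. It was at 14.16 and 15.45 FPKM in sham hearts and 16.67 and 13.74 in WT MI, with overlapping libraries and a log2 fold change of 0.03 (95% confidence interval -0.28 to 0.34), which became -0.20, -0.21 and -0.11 under the same scalings. Of the 6 members that passed the test, the κB consensus printed above was found in 4 and was absent from *Rela*, while *Nfkbiz* had no promoter entry. The consensus was also present in *Rel*, which did not pass.

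The choice of scaling moved the differences of all genes. The 10 most abundant genes took 16.1% and 16.4% of summed FPKM in sham hearts and 8.99% to 10.6% in the infarct libraries. After infarction 3637 tested genes were called higher and 1232 lower, against 2453 and 2351 under upper-quartile scaling, 2198 and 2447 under quantile normalization, and 2869 and 1830 with scaling that left out the 100 most abundant genes. The median over all tested genes moved from 0.19 to -0.03, -0.09 and 0.06. Relative to the median of 0.19, *Nfkbie*, *Nfkbia* and *Nfkbiz* were still higher by 1.16, 1.07 and 1.04, *Nfkb2* by 0.67 and *Rela* by 0.46 on the log2 scale. These 5 members passed the test with every pseudocount, filter, scaling, fit and left-out library that included them. A limit of 2-fold beside the adjusted p left *Nfkbia*, *Nfkbie* and *Nfkbiz*, and the recomputed screen of the study (at least 2-fold and a probability of at least 0.8 against noise) left *Nfkbia*.

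**Figure D2:**
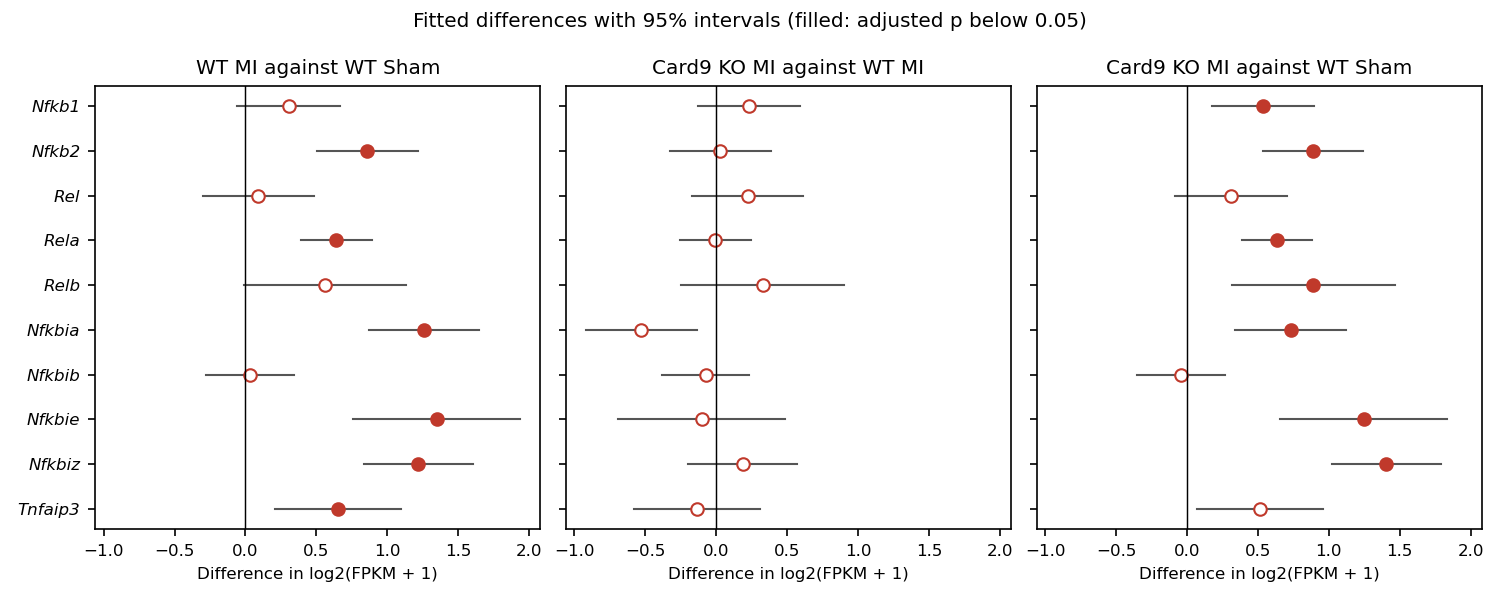
Log2 fold change of each member with its 95% confidence interval from limma, for WT MI against WT Sham, KO-labelled MI against WT MI and KO-labelled MI against WT Sham. Filled points passed the test. For KO-labelled MI against WT MI no point is filled, and *Nfkbia* lies at -0.53.

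Between KO-labelled MI and WT MI no member passed the test (limma, adjusted p below 0.05), where 1.40% of tested genes were called. *Nfkbia* was the 1 member with an unadjusted p under 0.05, against 20.0% of tested genes, and the recomputed screen also called 0 members. *Nfkbia* was at 51.51 and 48.16 FPKM in WT MI and at 36.23 and 32.39 in KO-labelled MI, all of which exceed the sham values. The groups did not overlap, and the mean in KO-labelled MI was 0.688 times that in WT MI (log2 fold change -0.53, SE 0.17, 95% confidence interval -0.92 to -0.14, limma unadjusted p = 0.015, adjusted p = 0.15). The difference was negative under every alternative tried, from -0.61 to -0.45, with limma adjusted p-values from 0.087 to 0.47. With 2 libraries against 2 an exact permutation test cannot go below p = 0.333.

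The values of the other members were close between the infarct groups or had wide intervals. *Rela* was at 34.17 and 32.43 FPKM in WT MI and 33.47 and 32.82 in KO-labelled MI, with a log2 fold change of -0.01 and a 95% confidence interval of -0.26 to 0.24. *Nfkb2* had a log2 fold change of 0.03 (95% confidence interval -0.33 to 0.38), *Nfkbib* of -0.07 (-0.38 to 0.23) and *Nfkb1* of 0.23 (-0.13 to 0.59). *Rel* at 3.43 and 3.73 against 4.57 and 4.11 FPKM and *Relb* at 8.35 and 7.90 against 11.40 and 9.59 were higher in both KO-labelled libraries than in both WT MI libraries. Their log2 fold changes were 0.22 (-0.17 to 0.61) and 0.33 (-0.25 to 0.90). *Tnfaip3*, at 2.54 and 2.84 against 2.18 and 2.53 FPKM, was lower without overlap (log2 fold change -0.14, -0.58 to 0.31). *Nfkbiz* and *Nfkbie* overlapped between the groups. Libraries were thus apart for 2 members in the higher direction and 2 in the lower, against 30.8% and 21.9% of tested genes.

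Of the cell type markers, all 8 listed neutrophil markers were lower in both KO-labelled libraries than in both WT MI libraries, as *Nfkbia* and 21.9% of tested genes were. Of the 8, 7 were tested and 0 passed, and *Ltf*, at 0.27 and 0.09 FPKM in WT MI, was not tested. Their sum was 0.339 times that of WT MI. Within WT MI this sum was 227.6 and 98.1, where *Nfkbia* was at 51.51 and 48.16. Of the 14 macrophage markers, 8 were higher without overlap and 1 lower, against 30.8% and 21.9% of tested genes. Of these markers 0 passed the test, and their summed level was 1.53 times WT MI. The pan-leukocyte gene *Ptprc* was at 12.80 and 13.08 FPKM in WT MI and 20.55 and 20.47 in KO-labelled MI. Their part in the difference of *Nfkbia* was not tested.

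Against WT Sham, KO-labelled MI showed 7 members higher and 0 lower (limma, adjusted p below 0.05), where 34.8% of tested genes were called higher and 14.3% lower. The 7 were *Nfkb1*, *Nfkb2*, *Rela*, *Relb*, *Nfkbia*, *Nfkbie* and *Nfkbiz*. Libraries did not overlap for 9 members, against 51.6% of tested genes, the exception being *Nfkbib*. This comparison shares its sham libraries with that of WT MI, so the values are given side by side. *Nfkb1* was at 22.59 and 20.74 FPKM, with a log2 fold change of 0.54 (limma adjusted p = 0.023) where WT MI had 0.30. *Relb* had 0.89 (limma adjusted p = 0.019) where WT MI had 0.56, and *Nfkbiz* had 1.41 (limma adjusted p = 0.00036) where WT MI had 1.22. *Nfkbia* had 0.73 (limma adjusted p = 0.0086) where WT MI had 1.26, and *Tnfaip3* had 0.51 (limma adjusted p = 0.057) where WT MI had 0.65. Without the first KO-labelled library 4 members were called, and under upper-quartile scaling also 4. The call of *Nfkb1* was lost under 6 of 17 alternatives (log2 fold change down to 0.25, limma adjusted p up to 0.22), that of *Relb* under 4 and that of *Nfkbia* under 2. The genes called higher and lower numbered 4569 and 1875, against 3040 and 3144 under upper-quartile scaling, 2755 and 3444 under quantile normalization, and 3642 and 2527 without the 100 most abundant genes, while the median over all tested genes went from 0.24 to -0.02, -0.10 and 0.09.

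Ratios within a library do not depend on its scaling, so the summed FPKM of the 5 inhibitors was set against that of the 5 subunits. The ratio follows the grouping of the members and does not measure inhibition of NF-κB. It counts *Nfkbiz* as an inhibitor and leaves out the atypical IκB genes *Bcl3* and *Nfkbid*. The summed FPKM of the 5 subunits was 57.2 and 52.4 in sham hearts, 84.3 and 82.4 in WT MI, and 93.1 and 86.6 in KO-labelled MI. The summed FPKM of the 5 inhibitors was 35.9 and 44.4, 82.3 and 75.2, and 66.7 and 59.1. The ratio of inhibitors to subunits was therefore 0.628 and 0.846 in sham hearts, 0.977 and 0.913 in WT MI, and 0.716 and 0.682 in KO-labelled MI. Both WT MI libraries were above all 4 others, and the KO-labelled ratios fell within the sham range. With *Nfkbia* left out, an alternative chosen after seeing the data, the ratios were 0.335 and 0.381, 0.366 and 0.328, and 0.327 and 0.308. WT MI then no longer stood above WT Sham, and both KO-labelled ratios lay below the sham range instead of within it. The ratio of *Nfkbia* to *Rela* was 0.752 and 1.23 in sham hearts, 1.51 and 1.49 in WT MI, and 1.08 and 0.987 in KO-labelled MI. *Nfkbia* made up 46.7% and 54.9%, 62.6% and 64.1%, and 54.3% and 54.8% of inhibitor FPKM.

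**Figure D3:**
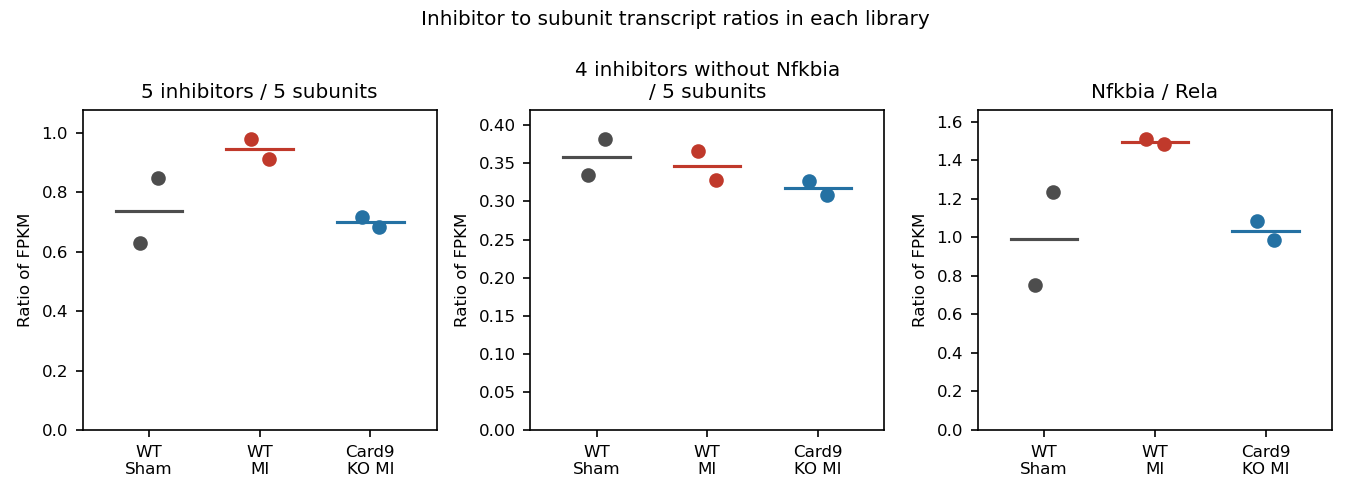
Ratio of summed inhibitor to summed subunit FPKM, with and without *Nfkbia*, and of *Nfkbia* to *Rela*, in each library. Points are libraries and horizontal lines are group means. The WT MI libraries, at 0.977 and 0.913, lie above the other 4 in the ratio over all 5 inhibitors.

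The shares of the subunits within their summed FPKM were compared next. *Rela* made up 36.0% to 40.6% of summed subunit FPKM in every library and was the largest share in each. *Nfkb1* took 23.6% and 30.1% in sham hearts, 18.9% and 25.4% in WT MI, and 24.3% and 24.0% in KO-labelled MI, with overlapping ranges. *Nfkb2* took 19.7% and 18.4% in sham hearts and 26.6% and 21.1% in WT MI, above both sham libraries, and 22.6% and 22.3% in KO-labelled MI. *Rel* took 5.33% and 6.79% in sham hearts and 4.07% to 4.91% in the 4 infarct libraries, below both sham libraries. *Relb* varied between 7.08% and 12.4% within WT Sham alone, a range that holds its share in all infarct libraries.

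**Figure D4:**
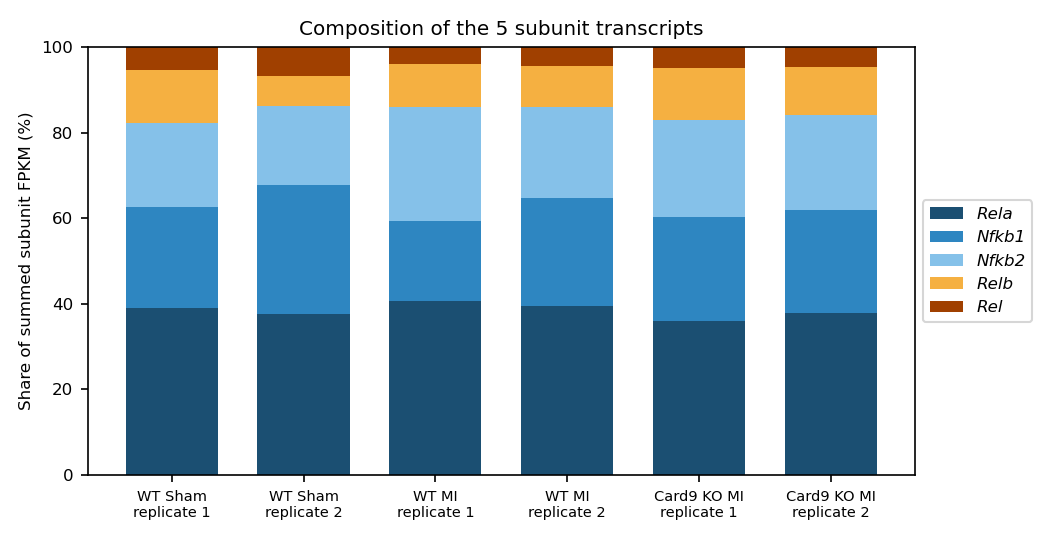
Share of each subunit in the summed FPKM of the 5 subunits, in percent, as stacked bars for the 6 libraries. *Rela* is the largest share in each, at 36.0% to 40.6%.

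Other genes of the pathway were described by lists that hold 41 genes, of which 40 were tested. In WT MI against WT Sham 12 of the 40 were called higher and 0 lower, where 27.7% of all tested genes were called higher and 37.1% in either direction. Their median log2 fold change was 0.22, close to the 0.19 of all tested genes. Both atypical IκB genes, whose proteins work in the nucleus, were among the 12. *Bcl3* was at 8.12 and 5.04 FPKM in sham hearts and 20.66 and 19.99 in WT MI (log2 fold change 1.52, limma adjusted p = 0.00077). *Nfkbid* was at 0.16 and 0 FPKM in sham hearts, where it lay under the worth of 3 fragments on 2 kb, and at 3.20 and 1.52 in WT MI (log2 fold change 1.59, limma adjusted p = 0.0042). Of 10 IKK and NIK kinase genes only *Ikbke*, encoding the IKK-related kinase IKKε, was called, at 0.29 and 1.43 against 4.29 and 5.60 FPKM (log2 fold change 1.74, limma adjusted p = 0.0044).

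Among 25 tested adapters and ubiquitin regulators 7 were called higher, a share close to the 27.7% of all tested genes. The 4 with the largest differences were *Ripk1*, the kinase scaffold of TNF receptor signalling (log2 fold change 1.31, limma adjusted p = 0.0036), *Myd88*, the adapter of Toll-like and IL-1 receptors (1.20, 0.001), *Irak3*, a brake on that pathway (1.15, 0.0027), and *Irak4*, its first kinase (1.14, 0.0025). Of the CARD9 complex, *Card9* (1.36, limma adjusted p = 0.0032) and *Bcl10* (0.52, limma adjusted p = 0.037) were called and *Malt1* was not, at 3.85 and 4.10 against 4.83 and 4.53 FPKM. Between KO-labelled MI and WT MI 0 of the 40 were called by limma and by the recomputed screen, and 7 of them had an unadjusted p under 0.05, against 20.0% of all tested genes. Of the 40, 33 had a positive and 7 a negative difference, with a median of 0.11 against 0.04 over all tested genes. Libraries were apart for 15 in the higher direction and 2 in the lower, against 30.8% and 21.9% of tested genes. Against WT Sham KO-labelled MI had 19 of the 40 called higher and 0 lower, where 34.8% and 14.3% of all tested genes were.

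**Figure D5:**
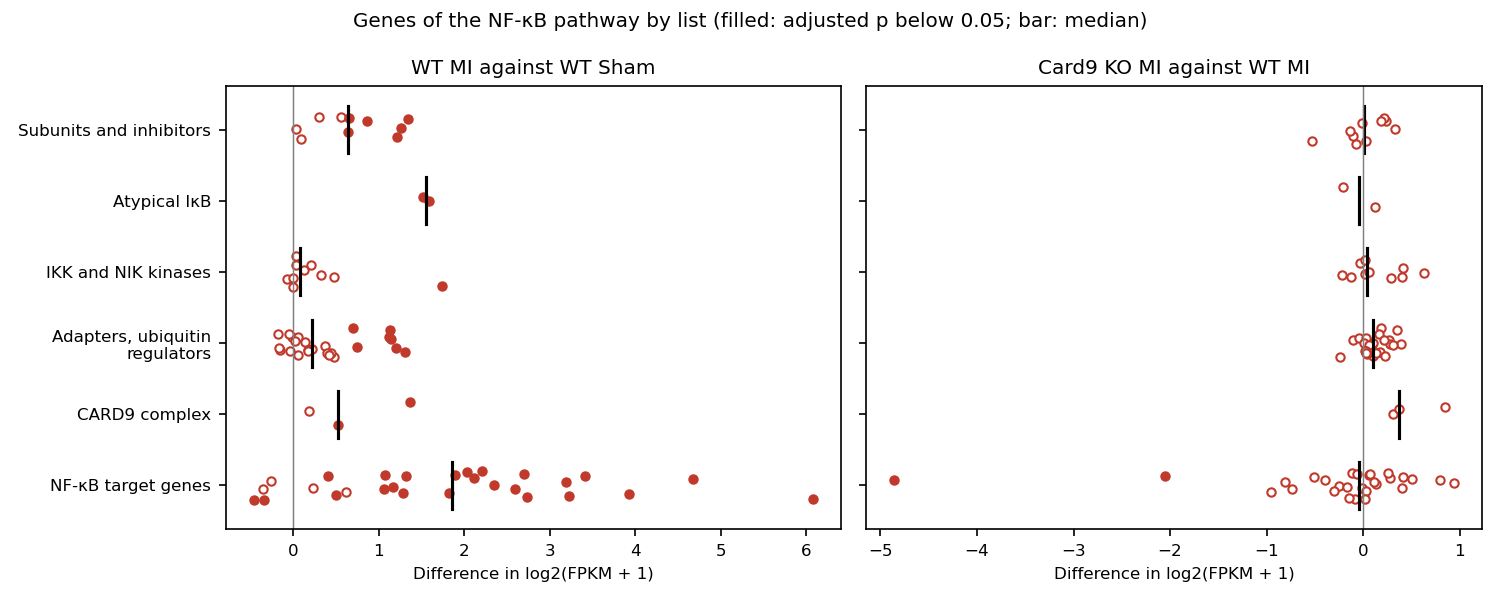
Log2 fold changes from limma of the members, the other pathway genes and the NF-κB target genes by list, for WT MI against WT Sham and KO-labelled MI against WT MI. Each point is a gene, filled where it passed the test, and the black bar is the median of its list. The target genes have a median of 1.86 in the first comparison and -0.04 in the second.

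A list of 30 known NF-κB target genes, 28 of them tested, was read beside the members. The list, which includes *Lcn2* and *Mmp9*, was chosen with earlier results of these data known, so its counts are a description only. In WT MI against WT Sham 22 were called higher and 2 lower (*Tnfaip2* and *Sod2*, named after their values were seen), against 27.7% and 9.39% of all tested genes. Their median log2 fold change was 1.86, against 0.19 over all tested genes. The largest were *Lcn2*, encoding the iron-binding acute-phase protein lipocalin 2 (6.08, limma adjusted p = 5.2e-06), the monocyte chemokine *Ccl2* (4.67, 2.5e-05), the acute-phase gene *Saa3* (3.93, 0.0053) and the gelatinase *Mmp9* (3.41, 0.00034). The 2 *Saa3* libraries of KO-labelled MI were far apart, at 44.26 and 5.76 FPKM. Between KO-labelled MI and WT MI 2 of the 28 were called, both lower (0.587% of all tested genes were), and 13 had a positive and 15 a negative difference, with a median of -0.04 against 0.04 over all tested genes. Of the 28, 9 had an unadjusted limma p under 0.05, against 20.0% of tested genes. Libraries were apart for 6 in the higher direction and 9 in the lower, against 30.8% and 21.9% of tested genes. *Lcn2* was at 268.8 and 203.9 FPKM in WT MI and 6.98 and 7.27 in KO-labelled MI (log2 fold change -4.86, limma adjusted p = 0.0002). *Mmp9* was at 24.91 and 10.15 against 3.26 and 2.94 FPKM (-2.05, limma adjusted p = 0.045). The count of 2 fell to 1 when any library except the second of WT MI was left out. The numbers of genes called higher and lower in this comparison were 107 and 77 over all tested genes, and 84 and 97 under upper-quartile scaling, where the order turned.

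The tested genes whose profile over the 6 libraries was most like the mean centred profile of the 10 members were *Rpl8*, *Tgfbi*, *Eif6*, *Pirb* and *Anapc4*, with Pearson r from 0.999 to 1.00 over the 6 libraries. The 6 points fall into sham and infarct libraries, which any gene that differs between them shares, so this is a description only. *Rpl8*, a ribosomal protein gene, was at 238.4 and 229.1 FPKM in sham hearts, 422.0 and 408.9 in WT MI, and 437.1 and 393.5 in KO-labelled MI.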

How the data were processed

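The authors extracted RNA with TRIzol, selected mRNA with oligo(dT), sequenced it on an Illumina instrument and mapped reads to mm9; their processing notes name BWA and Bowtie2. They deposited FPKM values of 6 libraries by NCBI gene number. The annotation and the use of strand are not given in the sources used here, so overlapping and antisense genes cannot be separated. Genes not listed were set to 0. Of 17441 gene numbers 17390 matched a symbol in a GRCm38.p6 table. Counts were not rebuilt, because 71.6% to 76.9% of low values came within 0.15 of whole fragments.

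The main test was limma 3.58.1 (R 4.3.3; lmFit, eBayes with trend) on log2(FPKM + 1) for the 13120 genes that reached an FPKM of 1 in 2 or more libraries, with 3 groups in one fit, no covariates and Benjamini-Hochberg adjustment. All 10 members passed this filter. Tables were handled in Python 3.11.15 with numpy 2.4.6 and pandas 2.3.3.

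The members and lists were chosen with earlier results of these data known. Genes named are the members, *Card9*, *Bcl10*, *Malt1*, up to 4 called genes of each other list with the largest WT MI against WT Sham difference, any listed gene called between the infarct groups, and the 5 profiles most like the members. The κB consensus was searched after the looser motif had been seen in 45.8% of promoters. Alternatives were other pseudocounts, filters, scalings, fits and thresholds, a replicate block, the study's screen recomputed and each library left out.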

Additional observations from a re-analysis of the deposited data

How the results depend on the processing

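Calls were recomputed with other pseudocounts, filters, scalings, fits and thresholds and with each library left out. Of the members, *Nfkb2*, *Rela*, *Nfkbia*, *Nfkbie* and *Nfkbiz* kept their call in WT MI against WT Sham with every pseudocount, filter, scaling, fit and left-out library that tested them, while a mean FPKM of at least 5 removed *Rel*, *Nfkbie* and *Tnfaip3* from the test. The labels give the groups the same replicate numbers, but samples of 1 number did not deviate together in expression (correlations 0.002, -0.008 and 0.02). These correlations cannot show whether samples of 1 number were handled together, and the labels do not say. With the number as a replicate block the members called were 6, 0 and 7 for WT MI against WT Sham, KO-labelled MI against WT MI and KO-labelled MI against WT Sham, as without it. For KO-labelled MI against WT MI the block gave 1 called target gene and 71 called genes in all, against 2 and 184.

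Requiring a fold change of at least 2 left 3 members in WT MI against WT Sham and 2 in KO-labelled MI against WT Sham, and the recomputed screen left 1 and 0. For the latter comparison upper-quartile scaling left 4, and leaving out single libraries gave 4 to 7. The other pathway genes called in WT MI against WT Sham were 5 with a mean FPKM of at least 5 and 2 by the screen, and in KO-labelled MI against WT Sham they were 10 with that filter, 10 with the fold limit and 4 by the screen. The screen called 14 target genes in WT MI against WT Sham and 12 in KO-labelled MI against WT Sham. Target genes called in KO-labelled MI against WT MI were 1 with a pseudocount of 0.1, with no filter, with only the groups compared and without the trend, 4 with a pseudocount of 5, and 1 to 2 with single libraries left out.

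Over all tested genes, WT MI against WT Sham gave 1707 calls with the fold limit, 1107 by the screen and 2883 to 4675 with single libraries left out, with 2883 and 3194 without the first and the second WT MI library. KO-labelled MI against WT MI gave 80 and 312 calls with pseudocounts of 0.1 and 5, 12 with no filter, 284 with a mean FPKM of at least 5, 101 with only the groups compared, 58 without the trend, 96 with the fold limit and 8 to 96 with single libraries left out. Its calls higher and lower were 125 and 118 under quantile normalization and 100 and 84 without the 100 most abundant genes. KO-labelled MI against WT Sham gave 2544 calls with the fold limit and 1652 by the screen.

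Directions that turned belonged to members that were not called. For WT MI against WT Sham under upper-quartile scaling, quantile normalization and scaling without the 100 most abundant genes, *Rel* had log2 fold changes of -0.10, -0.25 and -0.026 and *Nfkbib* of -0.20, -0.21 and -0.11, and *Nfkbib* ranged from -0.10 to 0.16 with single libraries left out. For KO-labelled MI against WT MI *Nfkb2* had -0.021 under upper-quartile scaling and -0.0067 under quantile normalization. With single libraries left out it ranged from -0.15 to 0.20, *Rela* from -0.043 to 0.030, *Nfkbib* from -0.21 to 0.056 and *Nfkbie* from -0.36 to 0.16. For KO-labelled MI against WT Sham *Rel* had -0.12 under quantile normalization and *Nfkbib* ranged from -0.10 to 0.015 with single libraries left out. In the same comparison *Nfkb1* lost its call under 6 of 17 alternatives, *Relb* under 4 and *Nfkbia* under 2.

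Ratios and shares depend on which genes enter the sum. The inhibitor to subunit ratio without *Nfkbia* had means of 0.358 for WT Sham, 0.347 for WT MI and 0.318 for KO-labelled MI, and without *Nfkbiz* it was 0.861 in WT MI and 0.609 in KO-labelled MI. With *Rela* left out of the subunit sum, the shares for WT Sham, WT MI and KO-labelled MI were 43.5%, 36.9% and 38.3% for *Nfkb1*, 30.9%, 39.7% and 35.6% for *Nfkb2*, 9.81%, 7.16% and 7.66% for *Rel*, and 15.9%, 16.2% and 18.5% for *Relb*. Where a call was lost the cause was not tested.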
